A study of Mus musculus with 15 samples.

Results

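The regulators of hormone-sensing luminal cells were examined in mammospheres, floating spheres grown from mammary cells. The 10 genes on the list were chosen by symbol: the receptor genes Esr1, Pgr and Prlr, the transcription regulators Gata3, Foxa1 and Cited1, the secreted ligand Tnfsf11, the signal transducers Stat5a and Stat5b, and the epithelial surface gene Epcam. Probe sets that the platform annotation maps to 1 symbol were found for 9 of the 10, out of 18193 genes in all, and Prlr was not analysed here. FVB/N mice carrying WAPCre-DNbcatn;HGF gave the primary tumour cells, which grew as spheres for 7 days and were then treated for 24 h before 250 ng of total RNA per array was labelled. Every array carries this genotype, so no group lacks the alleles, and the name places Cre under the Wap promoter, which is active in secretory luminal cells.

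The 15 arrays form 5 groups of 3. The first set, with the title code JAH, holds PHA, ICG and its own DMSO vehicle arrays; the second set, with the title code JHO, holds PHA+ICG and its own DMSO vehicle arrays. The series names Wnt and MET pathway inhibitors as the agents, and by general knowledge PHA denotes a MET kinase inhibitor and ICG an inhibitor of β-catenin-driven transcription; doses are not given in the sources used here. Neither the source of each replicate nor a pairing is labelled, so each p-value rests on the spread among these arrays alone, possibly a technical one, and the small number of arrays limits precision. Values are deposited log2 signals, and differences are given on that scale ± SE from limma, with n = 3 arrays per group and p-values adjusted by Benjamini-Hochberg over all 18193 genes. Each set was fitted on its own, because residual SDs in the second set were 2.21 times those in the first (median over genes of the ratio).

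In the mammary gland, hormone-sensing luminal cells carry the estrogen receptor (Esr1) and the progesterone receptor (Pgr). The pioneer factor FOXA1 and the luminal factor GATA3 act with the estrogen receptor on chromatin, and CITED1 is one of its coactivators. Progesterone induces the RANK ligand (Tnfsf11), which signals to neighbouring epithelial cells through RANK; stromal cells and activated lymphocytes can make this ligand too. Prolactin acts through its receptor and JAK2 on STAT5A and STAT5B, while EPCAM is an adhesion glycoprotein found on most simple epithelia.

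With ICG, Tnfsf11, Epcam and Esr1 fell, Tnfsf11 by the most. With PHA, Gata3 fell and no member rose. The Tnfsf11 call held for both of its probe sets and whichever array was left out. The Epcam call was lost when its probe sets were averaged. Those of Esr1 and Gata3 were lost when certain single arrays were left out. With PHA+ICG no member passed the threshold, but Esr1, Pgr and Epcam passed as lower when same-numbered arrays were treated as pairs. The other probe sets of Esr1 and Pgr showed no such fall over all arrays of the set. A fit of 2 against 2 arrays without those numbered 1, chosen after seeing the data, also called Tnfsf11 lower. Signals of Foxa1 and Cited1 lay near the bottom of the scale in all groups, and Pgr did so in the first set.

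**Figure D1:**
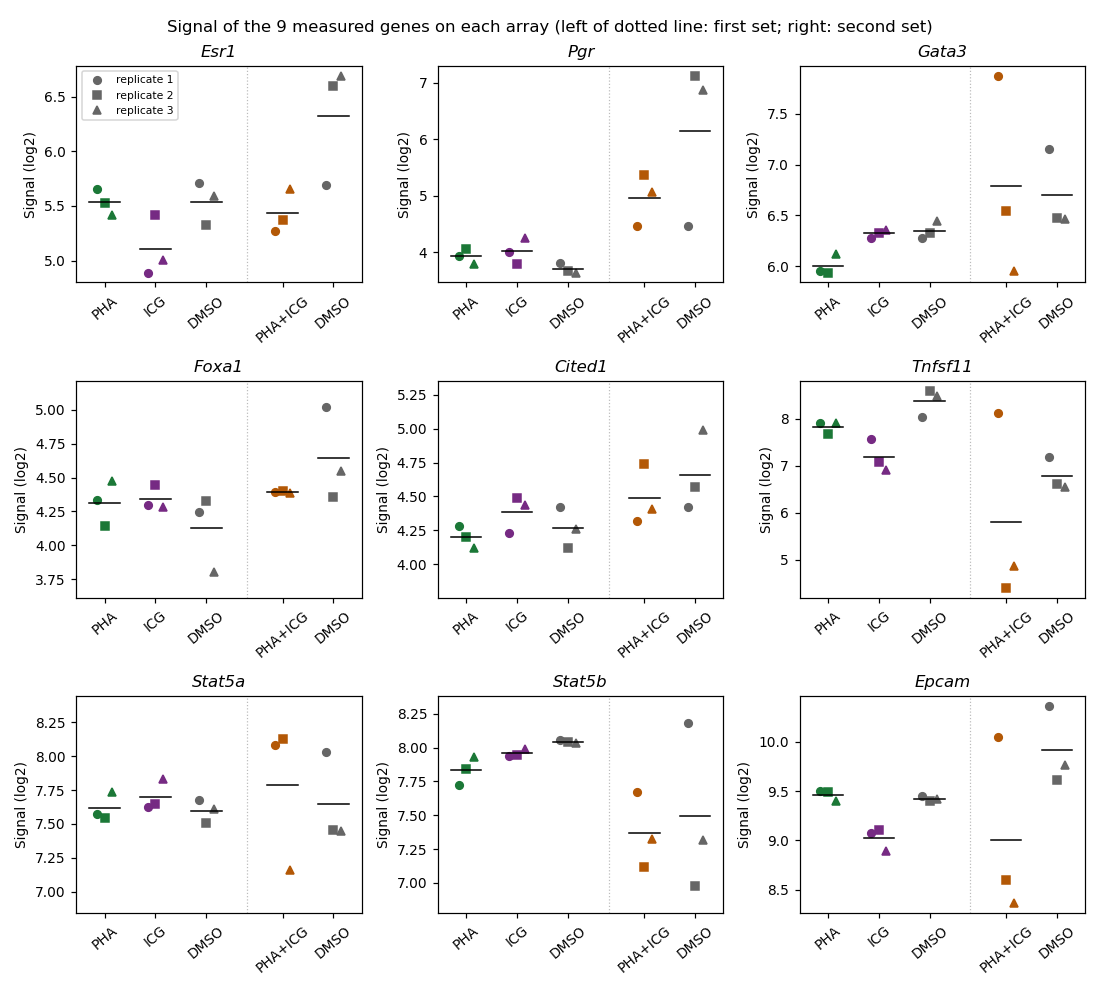
Deposited log2 signal (vertical axis) of the 9 measured genes on each of the 15 arrays, with treated groups left of their DMSO arrays and the mean of 3 arrays as a bar. Tnfsf11 lay between 6.91 and 7.57 on the ICG arrays, below all DMSO arrays of the first set, and the replicate 1 arrays of the second set (circles) stood apart for Tnfsf11, Pgr, Epcam and Gata3.

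The label was checked against the signals first. The luminal keratin gene Krt8 read between 8.04 and 10.51 over the 15 arrays. Of the 9 members, Gata3, Stat5a, Stat5b and Epcam reached a log2 signal of 5 on all 15 arrays, Esr1 on 14 and Tnfsf11 on 13, but Pgr on 4, Foxa1 on 1 and Cited1 on 0. The deposited values carry no detection calls, so a low signal cannot be told from none, and the arrays thus give little on 3 of the genes that define a hormone-sensing cell. Members with more than 1 probe set are described by the one with the highest mean; Gata3, Foxa1 and Cited1 have 1 each.

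Other cells were visible in these spheres. The fibroblast markers (8 of 8 measured) averaged 10.30 to 10.42 in PHA, 9.24 to 9.99 in ICG and 10.82 to 11.44 in DMSO arrays of the first set, and 11.83 to 12.24 in PHA+ICG and 12.55 to 12.94 in DMSO arrays of the second. The leukocyte markers (8 of 8) averaged 8.62 to 8.78 in PHA, 7.78 to 8.19 in ICG and 8.80 to 9.31 in DMSO arrays of the first set, and 6.02 to 7.35 in PHA+ICG and 6.81 to 8.38 in DMSO arrays of the second. Within the second set replicate 1 was the highest array of both groups for 6 of the 8 leukocyte markers, Cd3e and Cd79a being the exceptions: Ptprc, the pan-leukocyte gene for CD45, read 9.20, 5.54 and 6.20 on PHA+ICG arrays 1, 2 and 3, against 10.04, 6.79 and 6.64 on the DMSO arrays. Of 6 milk protein genes replicate 1 was the highest for 3 among PHA+ICG arrays and for 5 among DMSO arrays, so the pattern was not shared by all of them; Csn2 showed it in both, at 6.70, 3.45 and 4.06 with PHA+ICG and 13.01, 7.19 and 7.00 with DMSO. Of the 5 endothelial markers, Kdr ranged from 6.13 to 7.46 and Cdh5 from 4.49 to 5.77 over the 15 arrays, and Pecam1, Tek and Emcn lay between 3.42 and 4.87. Tek fell with PHA (−0.35 ± 0.06, limma adjusted p = 0.00654) at low signal, averaging 3.49 with PHA and 3.84 with DMSO. The other 4 were not called with PHA. Kdr and Cdh5 were at −0.28 ± 0.10 and −0.26 ± 0.11, and Pecam1 and Emcn at 0.20 ± 0.11 and 0.04 ± 0.12. Of the 8 basal and myoepithelial markers, Krt5, Krt14 and Acta2 fell with PHA, by 0.65 ± 0.11, 0.70 ± 0.10 and 0.49 ± 0.11, and with ICG, by 0.38 ± 0.11, 0.35 ± 0.10 and 0.60 ± 0.11. The other 5 were called with neither agent and had low signal in the first set. With PHA, Trp63, Mylk and Myh11 were at −0.03 ± 0.09, −0.21 ± 0.16 and −0.16 ± 0.12. Oxtr and Cnn1 were at 0.12 ± 0.08 and 0.24 ± 0.09. Of all genes 7.07% fell with PHA, and 15% fell and 11.9% rose with ICG. Of 3 measured adipocyte markers Fabp4 fell by 1.45 ± 0.12 with ICG. Adipoq was higher by 0.31 ± 0.08 but at low signal, reading 3.69, 3.87 and 3.75 with ICG and 3.48, 3.52 and 3.37 with DMSO. The part of these cells in the results was not tested.

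The bases ahead of the annotated starts of Tnfsf11, Epcam and Esr1 are printed because these are the members that fell with ICG. They are from RefSeq on GRCm38.p6, 250 bases each, given 5′ to 3′ on the gene's strand, with matches to any of 9 searched motifs in capitals.
Tnfsf11, chr14:78308044-78308293, minus strand: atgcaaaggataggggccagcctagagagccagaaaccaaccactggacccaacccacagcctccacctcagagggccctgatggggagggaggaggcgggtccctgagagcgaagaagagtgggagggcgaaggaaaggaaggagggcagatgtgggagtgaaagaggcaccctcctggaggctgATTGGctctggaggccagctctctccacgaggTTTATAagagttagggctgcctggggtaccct
Epcam, chr17:87635729-87635978, plus strand: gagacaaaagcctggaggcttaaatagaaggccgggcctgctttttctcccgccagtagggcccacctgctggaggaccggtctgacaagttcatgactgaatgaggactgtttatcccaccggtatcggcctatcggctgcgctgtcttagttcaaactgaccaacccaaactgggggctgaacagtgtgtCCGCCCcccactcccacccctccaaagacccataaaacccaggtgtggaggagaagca
Esr1, chr10:4611739-4611988, plus strand: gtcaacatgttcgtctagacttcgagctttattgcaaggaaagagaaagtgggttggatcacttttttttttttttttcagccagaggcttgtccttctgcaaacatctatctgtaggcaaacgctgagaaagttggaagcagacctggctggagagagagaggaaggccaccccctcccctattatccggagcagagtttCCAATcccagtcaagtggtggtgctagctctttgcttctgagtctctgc

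The motifs were searched on both strands in 17 such windows of the 10 listed genes and in all 32851 windows. Tnfsf11 held a reversed TATA box (TATAAA, in 12.4% of all windows) and a reversed CCAAT box (CCAAT, 33.8%), Epcam a reversed GC box (GGGCGG, 32.7%) and Esr1 a CCAAT box. The TCF/LEF core CTTTGA, read by the factors that recruit β-catenin, was in none of these 3 windows, against 13.8% of all windows, and in 3 of the 17, 1 of them at Pgr. The STAT5 motif TTCNNNGAA was in 2 of the 17 (7.02% of all windows), 1 of them at a second start of Esr1, and the forkhead motif TGTTTAC in 2 (3.17%). AGATAA for GATA factors (9.99%), TGTGGT for RUNX factors (14%) and the palindromic estrogen response element (0.0639%) were in 0 of the 17. The Pgr and Esr1 sites are printed with the bases around them, on the gene's strand.
Pgr, TCF/LEF core in capitals, chromosome 9: ttagatttcttcTCAAAGcatctgatattc
Esr1 second start, STAT5 motif in capitals, chromosome 10: ctggagtttcTTCTAGGAAtgctgattcta
A match is a run of letters and shows no binding, and no match says only that the letters are not in this window.

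ICG against DMSO asks how the regulators respond when β-catenin-driven transcription is inhibited. Of the 9 members 3 fell and 0 rose, where 15% of all genes fell and 11.9% rose (26.9% called in either direction). The members' median difference was −0.03 and that of all genes 0.03.

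Tnfsf11, the ligand gene, read 7.57, 7.08 and 6.91 on the ICG arrays, against 8.05, 8.60 and 8.48 on the DMSO arrays. All ICG arrays lay below all DMSO arrays, and 40.6% of all genes had groups that did not overlap. The mean was 7.19 ± 0.34 with ICG and 8.38 ± 0.29 with DMSO (SD, n = 3 each), a difference of −1.19 ± 0.18 or 2.28-fold lower (limma adjusted p = 0.000908). A second probe set gave −1.01 ± 0.17 (adjusted p = 0.00273 over all probe sets), and no single array decided the call, which gave −1.38 to −1.05 when each was left out. Fibroblast markers fell in 7 of 8 cases and leukocyte markers in 5 of 8 in the same comparison, for example Col1a1, a fibrillar collagen chain, at −2.31 ± 0.27 and the macrophage complement gene C1qb at −2.75 ± 0.32, while Ptprc was at −0.05 ± 0.06 (adjusted p = 0.577). Fewer cells of a type and less RNA per cell cannot be told apart in bulk RNA, and the part of these cells in the Tnfsf11 difference was not tested.

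Epcam, the adhesion gene, read 9.07, 9.11 and 8.89 on the ICG arrays and 9.45, 9.40 and 9.42 on the DMSO arrays, with no overlap. The difference was −0.40 ± 0.07, or 1.32-fold lower (adjusted p = 0.00221). Its 2 probe sets disagreed, however: the dimmer one was at −0.06 ± 0.11 (adjusted p = 0.763), and the call was lost when the gene's probe sets were averaged (−0.23, adjusted p = 0.0652).

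Esr1, the estrogen receptor gene, read 4.89, 5.42 and 5.00 on the ICG arrays and 5.71, 5.32 and 5.59 on the DMSO arrays. ICG replicate 2 lay above DMSO replicate 2, so the groups overlapped. The difference was −0.44 ± 0.14, 1.35-fold lower (adjusted p = 0.0446), close to the threshold. A second probe set was at −0.33 ± 0.09 (adjusted p = 0.0243 over all probe sets). Its signal was low, at 3.67, 3.70 and 3.95 with ICG and 4.12, 4.12 and 4.06 with DMSO. The third, the dimmest, was at 0.07 ± 0.10. Over all probe sets the one used here had an adjusted p of 0.062, and averaging the 3 gave −0.23 (adjusted p = 0.0615), so the call was lost in both settings. The call was lost without DMSO replicate 1 or 3 or ICG replicate 1 or 3, where the difference was −0.35, −0.41, −0.33 and −0.39.

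**Figure D2:**
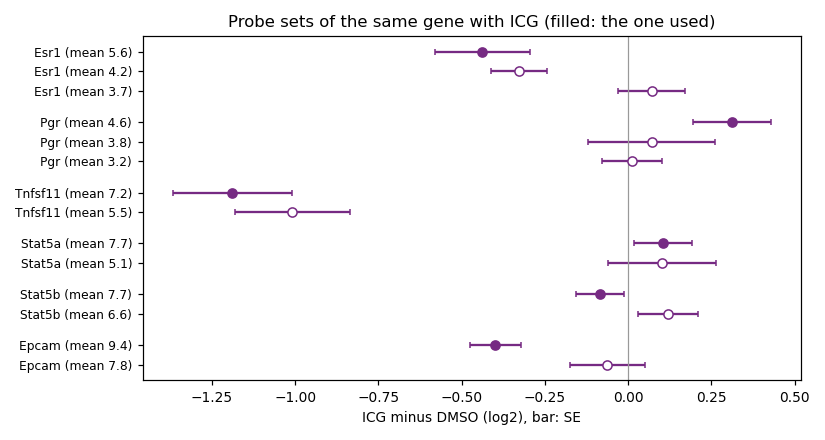
ICG minus DMSO (log2, horizontal axis, with SE) for each probe set of the 6 members that have several, labelled with the probe set's mean signal; filled points are those used for the gene. Both Tnfsf11 probe sets lay near −1, while the 2 Epcam probe sets differed, at −0.40 and −0.06.

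The other 6 members did not pass with ICG. Pgr, the progesterone receptor gene, averaged 4.02 ± 0.23 with ICG and 3.71 ± 0.09 with DMSO, a difference of 0.31 ± 0.12 at low signal (adjusted p = 0.0736). It passed without ICG replicate 2 (0.43, adjusted p = 0.0206). Gata3 differed by −0.03 ± 0.07, with a 95% interval of −0.19 to 0.13. Foxa1 (0.22 ± 0.13) and Cited1 (0.12 ± 0.09) differed by less than their spread allowed to call. Stat5a and Stat5b, neighbouring paralogues that encode the transducers of prolactin signalling, differed by 0.11 ± 0.08 and −0.09 ± 0.06, with 95% intervals of −0.08 to 0.29 and −0.23 to 0.06.

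PHA against DMSO asks the same of MET inhibition, and it uses the same 3 DMSO arrays as ICG. Of the 9 members 1 fell and 0 rose, where 7.07% of all genes fell and 3.14% rose (10.2% called in either direction). Gata3, a transcription factor needed for luminal differentiation, read 5.96, 5.94 and 6.12 on the PHA arrays and 6.28, 6.32 and 6.45 on the DMSO arrays. The groups did not overlap, as was the case for 31.6% of all genes. The difference was −0.34 ± 0.07, 1.27-fold lower (adjusted p = 0.0151). In the same comparison 4 of 8 fibroblast markers and 1 of 8 leukocyte markers fell, and their part in the Gata3 difference was not tested. It no longer passed without PHA replicate 1 (−0.32, adjusted p = 0.0619), PHA replicate 2 (−0.31, 0.0643) or DMSO replicate 3 (−0.30, 0.0554).

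Tnfsf11 read 7.92, 7.68 and 7.92 on the PHA arrays, against the DMSO values above. All PHA arrays lay below the lowest DMSO array, but the difference of −0.54 ± 0.18 did not pass (adjusted p = 0.0903); it passed without DMSO replicate 1, at −0.71 (adjusted p = 0.0342), and with a mean-dependent prior (adjusted p = 0.0419). Stat5b read 7.72, 7.84 and 7.93 with PHA and 8.05, 8.04 and 8.04 with DMSO, without overlap and at −0.21 ± 0.06 (adjusted p = 0.0684; 0.0426 after the filter on low values). Its second probe set was at −0.01 ± 0.09. Esr1 differed by −0.00 ± 0.14 with a 95% interval of −0.32 to 0.31, Epcam by 0.04 ± 0.07 and Stat5a by 0.02 ± 0.08. Pgr (0.22 ± 0.12), Foxa1 (0.19 ± 0.13) and Cited1 (−0.07 ± 0.09) were low and did not pass.

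Set directly against each other, PHA and ICG arrays differed for 4 of the 9 members, where 27.1% of all genes were called. Relative to ICG, PHA arrays were higher in Epcam by 0.44 ± 0.07 (adjusted p = 0.00111), in Tnfsf11 by 0.65 ± 0.18 (adjusted p = 0.0221) and in Esr1 by 0.43 ± 0.14 (adjusted p = 0.0459), and lower in Gata3, at −0.32 ± 0.07 (adjusted p = 0.0082). The groups did not overlap for any of the 4, nor for 41.7% of all genes. The calls of Epcam and Gata3 held whichever array was left out. That of Tnfsf11 was lost without PHA replicate 1 or 3 or ICG replicate 2 or 3 (0.51 to 0.61), and that of Esr1 without any PHA array or ICG replicate 1 or 3 (0.33 to 0.49). The second Epcam probe set was at 0.23 ± 0.11 (adjusted p = 0.218 over all probe sets). Over all probe sets the Esr1 one used here had an adjusted p of 0.0632, and a second, at low signal, was at 0.32 ± 0.09 (adjusted p = 0.0251).

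**Figure D3:**
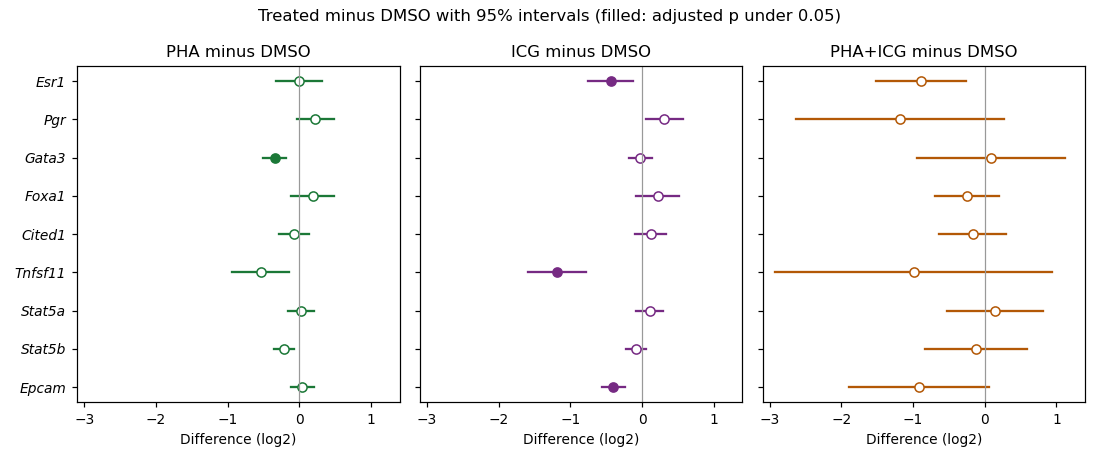
Treated minus DMSO (log2, horizontal axis) for the 9 members under PHA, ICG and PHA+ICG, with 95% intervals of the moderated fit; filled points passed an adjusted p of 0.05. The intervals of PHA+ICG are the widest, reaching from −2.92 to 0.94 for Tnfsf11.

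PHA+ICG was set against the DMSO arrays with the same title code to see the joint action of the inhibitors. By limma 0 of the 9 members passed, where 2.02% of all genes were called (1.54% lower and 0.478% higher). Of the members 1 (Esr1) had an unadjusted p under 0.05, and of all 18193 genes 2426 did. Same-numbered arrays of this set deviated alike, and replicate 1 of both groups stood apart in most leukocyte markers, as given above. Arrays 2 and 3 also deviated alike across numbers (r = 0.35 and 0.24), so their pairing is assumed. Fits with the pairs as a block, and without the first pair, are therefore given beside each value. The fit without the first pair was chosen after seeing the data.

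Esr1 read 5.27, 5.37 and 5.66 on PHA+ICG arrays 1, 2 and 3, against 5.70, 6.60 and 6.69 on the DMSO arrays. Each PHA+ICG array lay below each DMSO array, as for 18.3% of all genes in either direction. The difference was −0.89 ± 0.27 (adjusted p = 0.173). It passed with the replicate block (adjusted p = 0.0159) and without the first pair, at −1.13 (adjusted p = 0.0138). Leaving out DMSO replicate 1 alone gave −1.21 (adjusted p = 0.026). The second Esr1 probe set was at −0.07 ± 0.30 and the third at 0.23 ± 0.20, so this difference rests on 1 of the 3 probe sets.

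Pgr read 4.47, 5.37 and 5.07 on the PHA+ICG arrays, against 4.46, 7.12 and 6.86 on the DMSO arrays. The 2 DMSO arrays numbered 2 and 3 were the highest of the 15, and DMSO replicate 1 was as low as its treated partner. Over all 6 arrays the difference was −1.18 ± 0.63 (adjusted p = 0.518), with the block adjusted p = 0.0414, and without the first pair −1.77 (adjusted p = 0.00237). Its other 2 probe sets read at most 4.36 and were at −0.05 ± 0.26 and 0.09 ± 0.22.

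Tnfsf11 read 8.12, 4.40 and 4.86 on the PHA+ICG arrays, against 7.20, 6.61 and 6.55 on the DMSO arrays. The treated array was higher in the first pair, by 0.93, and lower in the other 2, by differences of −2.21 and −1.69. The mean difference of −0.99 ± 0.84 did not pass (adjusted p = 0.762), nor did it with the block; without the first pair it was −1.95 (adjusted p = 0.00198), and without PHA+ICG replicate 1 alone −2.16 (adjusted p = 0.0133). The second Tnfsf11 probe set split in the same way, at 6.15, 4.60 and 4.38 with PHA+ICG against 5.40, 5.53 and 5.71 with DMSO. The 2 low treated arrays are also those with the lowest Ptprc, and the part of leukocytes in this split was not tested.

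Epcam read 10.05, 8.59 and 8.36 on the PHA+ICG arrays and 10.37, 9.61 and 9.77 on the DMSO arrays, lower in the treated array of every pair. The difference was −0.91 ± 0.42 (adjusted p = 0.418), with the block adjusted p = 0.0239 and without the first pair −1.21 (adjusted p = 0.00979). Without PHA+ICG replicate 1 alone it was −1.44 (adjusted p = 0.0375). As with ICG, the dimmer probe set showed less, at −0.27 ± 0.15. The luminal keratin genes Krt8 and Krt18 were at −1.23 ± 0.47 and −0.88 ± 0.34 and did not pass (adjusted p = 0.285 and 0.287).

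Gata3 read 7.87, 6.54 and 5.95 with PHA+ICG and 7.15, 6.48 and 6.47 with DMSO, and its paired differences of 0.72, 0.07 and −0.52 had no common sign. The mean difference was 0.09 ± 0.45 and turned to −0.23 without the first pair (adjusted p = 0.742). Stat5a (0.15 ± 0.29), Stat5b (−0.12 ± 0.31), Foxa1 (−0.25 ± 0.20) and Cited1 (−0.17 ± 0.20) did not pass in any of these 3 fits. The 95% interval of Stat5a, −0.53 to 0.82, leaves room for differences larger than any seen for it in the first set.

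**Figure D4:**
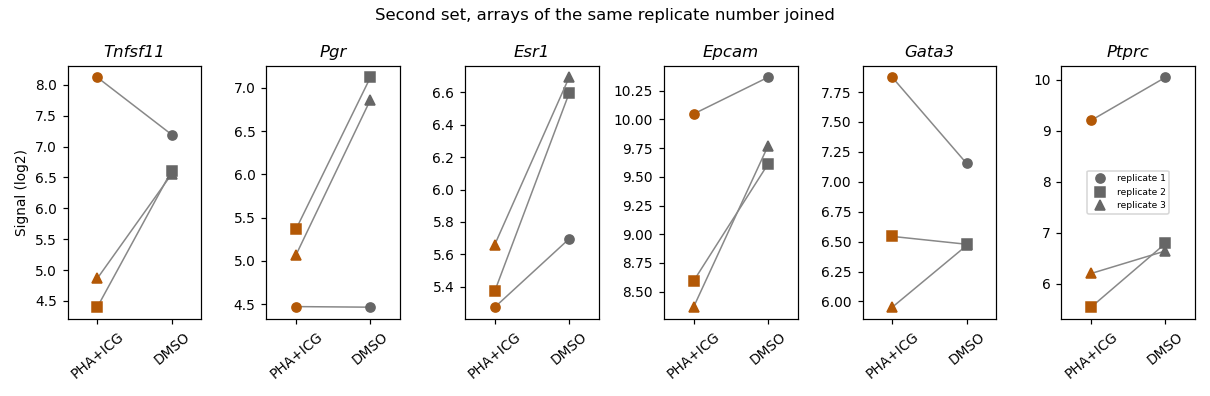
Log2 signal of 5 members and of the leukocyte gene Ptprc in the second set, PHA+ICG left and DMSO right, with arrays of the same replicate number joined. For Tnfsf11 the first pair runs opposite to the other 2 pairs, and Ptprc was higher in both arrays of the first pair (9.20 and 10.04) than in the others.

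Whether the combination differed from either inhibitor alone was tested across both sets with the spread weighted by set. PHA+ICG minus the PHA effect passed for 0 of 9 members, where 2.74% of all genes were called (1.08% higher, 1.66% lower). An unadjusted p under 0.05 was found for 2486 of all 18193 genes and for 3 members: Pgr at −1.40 ± 0.55, Epcam at −0.96 ± 0.36 and Esr1 at −0.89 ± 0.36. With the replicate block Pgr and Epcam passed (adjusted p = 0.0473 and 0.0229), as they did without the first pair of the second set (−1.997 and −1.25, adjusted p = 0.00289 and 0.0037). Over all arrays the other 2 Pgr probe sets were at −0.16 ± 0.26 and −0.22 ± 0.38, and the second Epcam probe set at −0.43 ± 0.23 (adjusted p = 0.969, 0.971 and 0.534 over all probe sets). PHA+ICG minus the ICG effect passed for 0 of 9, where 0.385% of all genes were called (0.121% higher, 0.264% lower). An unadjusted p under 0.05 was found for 1286 of all 18193 genes and, among the members, for Pgr alone, at −1.49 ± 0.55. Pgr passed without the first pair (−2.09, adjusted p = 0.00355) but not with the block, and its other 2 probe sets were at −0.06 ± 0.26 and 0.02 ± 0.38. For Tnfsf11 the differences were −0.45 ± 0.77 and 0.20 ± 0.77, too wide to tell the combination from either single agent.

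The vehicle arrays of both sets differed in these genes before any inhibitor. Of the 9 members 2 were higher and 2 lower in DMSO arrays of the second set, where 23.5% of all genes were called (11.8% higher and 11.8% lower) and 43.9% had groups that did not overlap. Pgr was higher by 2.44 ± 0.39 (adjusted p = 0.000253), at 6.15 ± 1.46 in the second set and 3.71 ± 0.09 in the first (SD, n = 3 each), and this held whichever array was left out. Its other 2 probe sets were at 0.26 ± 0.18 and 0.32 ± 0.27 (adjusted p = 0.368 and 0.475 over all probe sets), so this difference rests on 1 of the 3. Esr1 was higher by 0.79 ± 0.26 (adjusted p = 0.0359), Tnfsf11 lower at −1.59 ± 0.54 (adjusted p = 0.0438) and Stat5b lower at −0.55 ± 0.19 (adjusted p = 0.0483). Their second probe sets were at 0.55 ± 0.20, −0.47 ± 0.32 and −0.12 ± 0.15 (adjusted p = 0.0571, 0.356 and 0.664 over all probe sets), and the third of Esr1 at 0.05 ± 0.17. The call of Esr1 was lost in 3 of the 6 fits that left out 1 array (adjusted p up to 0.304). Those of Tnfsf11 and Stat5b were each lost in 5 of the 6 (up to 0.2 and 0.472). The Esr1 call was also lost after median centring (adjusted p = 0.0559) and with averaged probe sets (0.0541), that of Tnfsf11 with averaged probe sets (0.0892) and a shared spread (0.0856), and that of Stat5b with a shared spread (0.0854). All 3 passed without the first pair of the second set (0.00459, 0.00069 and 0.000251), a setting chosen after seeing the data. Epcam and Stat5a were not called, at 0.49 ± 0.25 and 0.05 ± 0.20. Their second probe sets did pass as higher, at 0.70 ± 0.16 and 0.83 ± 0.25 (limma adjusted p = 0.00435 and 0.0247 over all probe sets). Epcam also passed with averaged probe sets, at 0.595 (adjusted p = 0.0117). The labels give no more on the sets than their title code, so whatever else differs with the set cannot be told apart from it.

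The genes around these regulators were followed in 5 lists, whose counts are to be read against the shares called among all genes, 11.9% higher and 15% lower with ICG and 3.14% higher and 7.07% lower with PHA. Of 14 measured estrogen and progesterone receptor targets and mediators, 3 rose and 3 fell with ICG (median 0.02, all genes 0.03). Nrip1, a receptor corepressor, rose by 0.71 ± 0.09 and the stanniocalcin gene Stc2 by 0.70 ± 0.07, while the chemokine gene Cxcl12 fell by 0.95 ± 0.20 and the growth factor binding protein gene Igfbp4 by 0.92 ± 0.15. With PHA 4 fell and 0 rose (median −0.01, all genes 0.02): Stc2 at −0.88 ± 0.07, Igfbp4 at −0.55 ± 0.15, Myc at −0.44 ± 0.10 and the secretory cell factor gene Xbp1 at −0.24 ± 0.06. Myc rose by 0.46 ± 0.10 with ICG and Xbp1 fell by 0.24 ± 0.06. The classic receptor targets Greb1 and Wnt4 did not pass with either, at −0.01 ± 0.09 and 0.11 ± 0.10 with ICG and 0.20 ± 0.09 and −0.00 ± 0.10 with PHA.

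Of the 15 prolactin and STAT5 genes 5 rose and 0 fell with ICG (median 0.09), beside 11.9% and 15% of all genes. The casein gene Csn3 read 6.67, 7.38 and 6.52 with ICG and 5.39, 5.42 and 5.04 with DMSO, higher by 1.58 ± 0.20 (adjusted p = 0.00031). The adaptor gene Irs1 rose by 0.68 ± 0.11, the receptor kinase gene Jak2 by 0.33 ± 0.06 and the feedback inhibitor genes Cish and Socs3 by 0.30 ± 0.07 and 0.27 ± 0.06. With PHA 3 fell and 0 rose (median −0.03), beside 7.07% and 3.14% of all genes: Id2 by 0.44 ± 0.07, the alveolar factor gene Elf5 by 0.44 ± 0.11 and Jak2 by 0.26 ± 0.06. Elf5 was at low signal, averaging 4.66 with PHA and 5.10 with DMSO. Jak2 thus fell with PHA and rose with ICG, and PHA arrays were below ICG arrays by −0.60 ± 0.06 (adjusted p = 7.76e-05).

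Of 6 measured RANK pathway genes, the decoy receptor gene for RANK ligand, Tnfrsf11b, fell with both agents. It read 4.64, 4.22 and 4.98 with PHA, 5.27, 5.78 and 5.35 with ICG and 6.22, 6.42 and 6.30 with DMSO, differences of −1.70 ± 0.18 (adjusted p = 4e-04) and −0.85 ± 0.18 (adjusted p = 0.0065). The receptor gene Tnfrsf11a was at −0.23 ± 0.10 and −0.27 ± 0.10 and did not pass. The NF-kB subunit gene Relb and the adaptor gene Traf2 rose with ICG, by 0.39 ± 0.06 and 0.23 ± 0.08.

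Of 18 luminal factors and cofactors, 2 fell with PHA and 0 rose, the T-box gene Tbx3 by 0.63 ± 0.08 (adjusted p = 0.00109) and the coactivator gene Ncoa2 by 0.37 ± 0.06. With ICG 3 rose (Foxo1, Cited2 and Ncoa1, by 0.38 ± 0.06, 0.32 ± 0.10 and 0.31 ± 0.07) and 2 fell, Myb at −0.32 ± 0.10 and low signal, and Grhl2 at −0.25 ± 0.08. Of 11 epithelial adhesion genes 3 rose with PHA and 4 with ICG, and 0 fell with either. The claudin genes Cldn4, Cldn3 and Cldn7 rose by 0.49 ± 0.06, 0.38 ± 0.06 and 0.34 ± 0.06 with PHA and by 0.48 ± 0.06, 0.44 ± 0.06 and 0.29 ± 0.06 with ICG, and the occludin gene Ocln by 0.49 ± 0.14 with ICG. Claudin 7 is a known membrane partner of EPCAM, whose own gene fell with ICG. With PHA+ICG limma called 0 genes of these 5 lists. In the order described, 1 of 14, 4 of 15, 2 of 6, 0 of 18 and 1 of 11 had an unadjusted p under 0.05. Of all 18193 genes 2426 did.

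**Figure D5:**
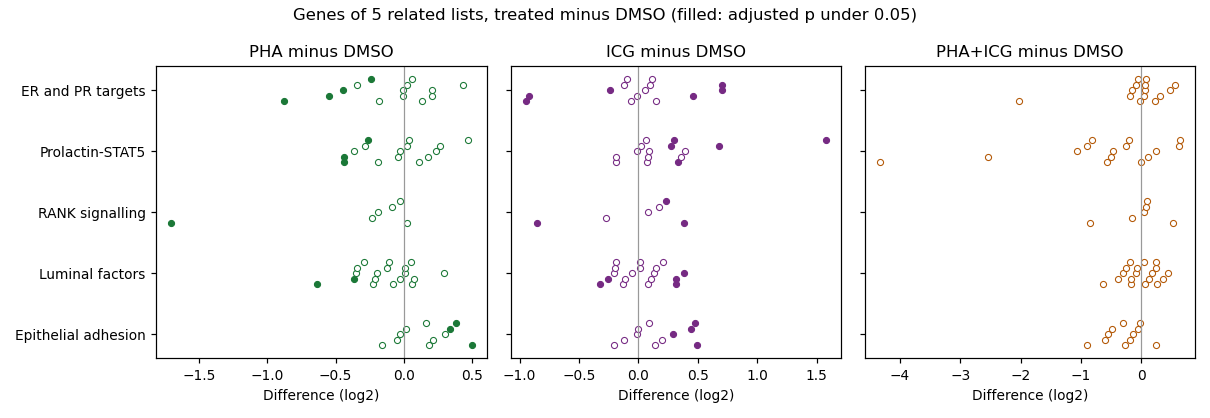
Treated minus DMSO (log2, horizontal axis, scaled per panel) for each gene of the 5 related lists; filled points passed an adjusted p of 0.05. Tnfrsf11b, at −1.70 with PHA and −0.85 with ICG, is the lowest RANK pathway gene in both panels, and no point is filled for PHA+ICG.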

How the data were processed

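Affymetrix arrays of 15 mammosphere samples were used. The authors deposited log2 signals for 45101 probe sets; the submitters' processing notes name MAS5 and RMA, without versions or roles, and whether both sets were normalized together is not given in the sources used here. Of the probe sets 34945 had 1 symbol in the platform annotation, 932 several and 9160 none; the latter groups and 64 controls were left out, and the probe set with the highest mean stood for its gene (18193 genes). Linear models were fitted with limma 3.58.1 in R 4.3.3: 3 group means in the first set (6 residual and 3.98 prior degrees of freedom) and 2 in the second (4 and 4.23). Differences across sets used all 15 arrays with a weight per set (arrayWeights). A gene was called at an adjusted p under 0.05. Python 3.11.15 with pandas 2.3.3 and matplotlib 3.10.9 prepared tables and figures. The procedure was tested on simulated data.

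The genes, related lists and fits were chosen with earlier results of these data known. Named genes are all members, and from each list up to 4 called genes with the largest difference per comparison, while Greb1, Wnt4, Tnfrsf11a, Xbp1 and Myc (with ICG), Socs3, Grhl2, Prom1 and other marker genes were named after their values were seen. Correlations of same-numbered arrays' deviations from group means were 0.61, 0.36 and 0.28 in the second set, which were taken as pairs, and −0.26 to 0.12 in the first, which were not. In the second set DMSO array 3 with PHA+ICG array 2 gave 0.35, and DMSO array 2 with PHA+ICG array 3 gave 0.24. Arrays numbered 1 against those numbered 2 or 3 gave −0.51 to −0.31. Only the first pair is thus set apart by these values, and the pairing of arrays 2 and 3 is assumed. Alternatives were a shared spread, quantile normalization, median centring, a replicate block, a filter (log2 of at least 5 in 3 arrays), averaged probe sets, a mean-dependent prior and leaving out each array.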

Additional observations from a re-analysis of the deposited data

How the results depend on the processing

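Of 982 recomputed values for 63 member results, 859 kept their direction and side of the threshold, 48 lost and 27 gained the call, and 48 changed sign, 0 of them called before or after. One spread shared by all 15 arrays ended every member call within the first set (Gata3 with PHA, limma adjusted p = 0.921; Tnfsf11, Epcam and Esr1 with ICG, 0.37, 0.596 and 0.325; the 4 calls of PHA against ICG too). It made Esr1 pass as lower with PHA+ICG (0.0155) and Foxa1 as higher in the second DMSO group (0.031). It called 182 genes with PHA, 1255 with ICG, 2413 with PHA+ICG and 1463 between PHA and ICG, against 1858, 4896, 368 and 4939, and 860 and 160 for the PHA+ICG effect minus the PHA and the ICG effect, against 499 and 70. The replicate block called 1202 with PHA, 1442 with PHA+ICG, and 958 and 197 for these effect differences; it ended the Esr1 calls of ICG (adjusted p = 0.0803) and PHA against ICG (0.083), made Epcam pass between the DMSO groups (0.0265), and changed no member call other than those and the ones given beside the second-set results. Quantile normalization called 765 for PHA+ICG minus PHA. Without the first pair of the second set 886 genes were called with PHA+ICG and 242 for PHA+ICG minus ICG. Testing every probe set called 7451 with ICG, 563 with PHA+ICG, 7803 between PHA and ICG, 848 and 130 for the effect differences and 9726 between DMSO groups, with more features tested; these last 2 settings were chosen after seeing the data. After quantile normalization PHA called 836 higher and 1093 lower, against 572 and 1286, and PHA+ICG 134 and 249, against 87 and 281; the DMSO groups gave 1945 and 2871, and 1680 and 2729 after median centring, against 2143 and 2140. Leaving out each array gave 1005 to 1691 genes with PHA (1062 and 1210 without DMSO 2 and 3, 1087 and 1005 without PHA 1 and 2), 3696 to 4756 with ICG, 56 to 389 with PHA+ICG (67 and 56 without DMSO 2 and 3, 189 and 89 without PHA+ICG 2 and 3), 3922 to 4399 between PHA and ICG, 149 to 719 for PHA+ICG minus PHA (180 and 149 without second-set DMSO 2 and 3, 275 without PHA+ICG 3), 1 to 144 for PHA+ICG minus ICG (106, 23 and 1 without second-set DMSO 1, 2 and 3, 144 and 28 without PHA+ICG 1 and 3) and 2442 to 4191 between DMSO groups (2542 and 2442 without second-set DMSO 2 and 3). Sign changes, all in uncalled values, follow, and their cause was not tested. Averaging probe sets gave Esr1 0.044 and Stat5a −0.011 with PHA, Stat5b 0.018 with ICG, Stat5a −0.005 with PHA+ICG, Pgr 0.081 for PHA against ICG, and Stat5a −0.109 for PHA+ICG minus ICG. Stat5a between DMSO groups was −0.045 after median centring. Without the first pair Gata3 and Stat5b were −0.225 and 0.072 with PHA+ICG, Gata3, Tnfsf11 and Stat5b −0.199, −0.764 and 0.157 for PHA+ICG minus ICG, and Stat5a −0.142 between DMSO groups. Leaving out each array, ranges were −0.113 to 0.081 for Esr1, −0.142 to 0.007 for Cited1 and −0.037 to 0.061 for Stat5a with PHA, −0.062 to 0.023 for Gata3 with ICG, and −0.452 to 0.508 for Gata3, −0.022 to 0.459 for Stat5a and −0.382 to 0.222 for Stat5b with PHA+ICG. For PHA against ICG they were −0.203 to 0.031 for Pgr and −0.106 to 0.059 for Foxa1. For PHA+ICG minus PHA they were −0.169 to 0.434 for Stat5b, −0.226 to 0.065 for Cited1, −0.108 to 0.853 for Gata3, −0.045 to 0.437 for Stat5a and −1.617 to 0.246 for Tnfsf11. For PHA+ICG minus ICG they were −0.296 to 0.308 for Stat5b, −0.128 to 0.353 for Stat5a, −0.426 to 0.534 for Gata3 and −0.968 to 0.895 for Tnfsf11, and between DMSO groups −0.142 to 0.147 for Stat5a. Signals near the floor limit what Foxa1, Cited1 and first-set Pgr can show.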

Other observations

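The genes most like each called member were sought by the root mean square difference over the 15 arrays, each value taken minus the mean of the DMSO arrays of its set. For Tnfsf11 they were the neural adhesion gene Chl1 (0.414), the matrix protein gene Spon1 (0.421) and Ms4a4d (0.463); Chl1 differed from DMSO by −0.60 under PHA, by −1.14 under ICG and by −1.41 under the combination. For Epcam they were Pi16 (0.183), Abhd14b (0.197) and the luminal keratin gene Krt18 (0.199), and Krt18 was at 0.07, −0.20 and −0.88. For Esr1 they were the chromosome motor gene Kif4 (0.183), Fam162a (0.194) and Pafah1b3 (0.202), and Kif4 was at −0.05, −0.54 and −0.96. For Gata3 they were the epithelial transcription factor gene Grhl1 (0.161), Fam53b (0.164) and the receptor kinase feedback gene Spry1 (0.166), and Spry1 was at −0.39, 0.01 and 0.24. These are likenesses of pattern only.

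Prom1, a surface marker of hormone-sensing luminal cells in the mouse, went the other way from Esr1 with ICG. It read 9.54, 9.55 and 9.46 on ICG arrays and 8.91, 8.85 and 8.90 on DMSO arrays, higher by 0.63 ± 0.06 (limma adjusted p = 5.9e-05).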
